A study of Homo sapiens with 6 samples.

Results

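The genes described here are 10 genes of the actin cytoskeleton and of the transcription factor that drives many of them. They were measured in COV434 cells, which the study describes as an immortalized human granulosa cell line. The 10 genes are the actins ACTB and ACTG1, the thymosins TMSB4X and TMSB10, the actin-binding genes PFN1 and CFL1, the contractile and adhesion genes MYL9, TAGLN2 and VCL, and SRF. These genes were picked by name among the 16798 genes of the deposited table, by a rule that holds no measured value although earlier results of these data were known. All 10 were found and all 10 had enough reads to be tested. RNA was sequenced from 3 control samples and from 3 samples exposed for 24 h to 15 µM 4-hydroxycyclophosphamide (4HC), the active metabolite of the alkylating drug cyclophosphamide (CTX). Both groups were the same line grown in DMEM with 10% fetal bovine serum, and the labels name no allele or transgene in either. The 4HC samples carry the name CTX in their labels. Nothing in the labels says that the 3 samples of a group came from separate cultures, so the p-values below measure only the spread between these samples.

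Actin exists as single molecules and as filaments, and moves between the 2 forms as filaments grow and shrink. Beta-thymosins hold single actin molecules in reserve, profilin feeds them to growing filament ends, and cofilin takes old filaments apart. SRF, serum response factor, binds a short DNA element called the CArG box together with partner proteins, and one family of partners, the MRTFs, is held inactive by binding single actin molecules. Many actin and contractile genes, including several of the genes here, are classical SRF targets, and in granulosa cells the actin cytoskeleton takes part in the change of cell shape that goes with hormone response.

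The expected counts per sample summed to between 16133786 and 16702316, so that even TAGLN2, the gene with the fewest reads here, was counted 216 to 266 times in each sample. No sample stood apart in depth. Of 11 granulosa cell markers found in the table, 7 (FOXL2, FSHR, CYP19A1, INHBA, NR5A1, STAR and GATA4) were under 1 CPM (read counts scaled to the library total) in every sample, and the list summed to 221 to 227 CPM in the control samples and 177 to 184 CPM in the 4HC samples. Nearly all of this sum was WT1, at 215 to 217 CPM and 170 to 176 CPM. Most of the markers that define granulosa cells were thus close to 0 in these cells, so the granulosa name of the line is the study's and was not borne out by these markers. Smooth muscle markers, which share genes with the SRF program, summed to 100 to 106 CPM in control and 96.4 to 101 CPM in 4HC, with CNN1 as the leading gene and MYH11, DES, ACTG2, LMOD1 and MYOCD under 1 CPM in every sample. Fibroblast markers summed to 386 to 408 CPM in control and 393 to 397 CPM in 4HC. Most of this was COL3A1, at 275 to 288 CPM and 275 to 281 CPM, followed by LUM and DCN. COL1A1 and COL1A2 were at most 1.49 and 3.24 CPM, and PDGFRA and PDGFRB were under 1 CPM in every sample. Epithelial markers summed to 6.53 to 8.92 CPM and 8.54 to 8.68 CPM, and leukocyte markers to 3.25 to 3.65 CPM and 3.46 to 5.24 CPM. Endothelial markers summed to 66.5 to 69.7 CPM in control and 58.5 to 59.9 CPM in 4HC. Nearly all of this was TEK, at 65.7 to 69.1 CPM and 57.1 to 58.8 CPM. KDR was at most 1.34 CPM, and PECAM1, CDH5 and VWF were under 1 CPM in every sample. The part of these differences in the results was not tested.

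The 10 genes spanned a wide range of abundance. TMSB4X was the most abundant gene of the whole table, at 41631 ± 1405 TPM (SD, n = 3) in control and 37039 ± 723 TPM in 4HC, and its mean level over the 6 samples was 1867 times that of TAGLN2, at 20.5 ± 1.54 and 21.6 ± 1.28 TPM. TPM values are scaled to transcript length and library, and so can be set side by side between genes. The order rests on the lengths used, most of all for short transcripts. In control TMSB4X had a mean of 145063 counts against 106749 for ACTB, a much smaller gap than in TPM. After TMSB4X came ACTB (rank 17 of all genes), ACTG1 (rank 18), PFN1 (rank 64), CFL1 (rank 76), TMSB10 (rank 85), MYL9 (rank 342), VCL (rank 977), SRF (rank 2466) and TAGLN2 (rank 5550). Within each group, the TPM values of neighbours in this order did not overlap, except for ACTB and ACTG1 in the 4HC samples. In those samples ACTG1, at 6183 ± 188 TPM, had the higher mean of the pair, against 5908 ± 182 TPM for ACTB, whereas in control ACTB stood at 6702 ± 169 TPM and ACTG1 at 6290 ± 130 TPM. Together the 10 genes took 2.50%, 2.57% and 2.48% of all expected counts in the control samples and 2.41%, 2.38% and 2.35% in the 4HC samples. Every 4HC sample was below every control sample, and the two-sided exact permutation test gave p = 0.1, the smallest value that 3 against 3 samples allow. In TPM the mean share was 6.12% in control and 5.57% in 4HC, also without overlap.

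**Figure D1:**
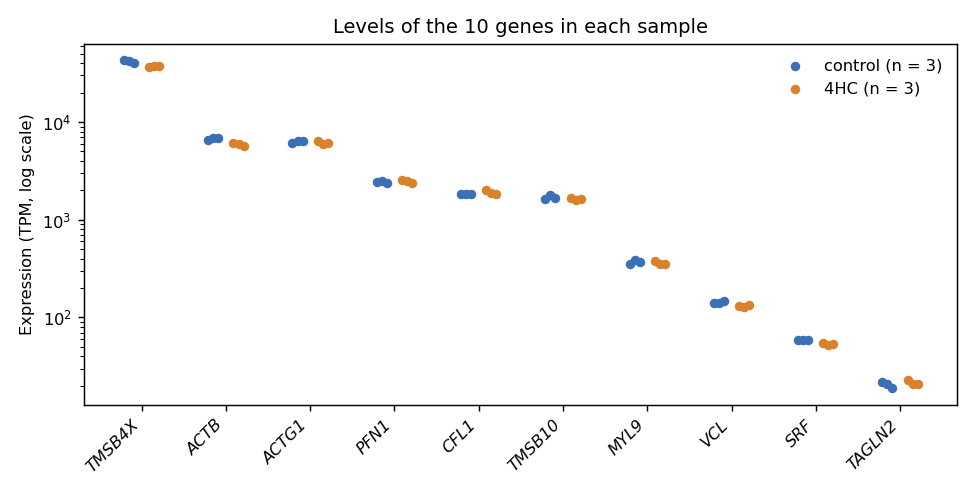
Level of each of the 10 genes in each sample, in TPM on a log axis, ordered from the most to the least abundant, with control samples in blue and 4HC samples in orange (n = 3 each). TMSB4X has the highest values and TAGLN2 the lowest, and the groups lie close together for every gene.

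ACTB, TMSB4X, VCL and SRF, 4 of the 10 genes, were lower in the 4HC samples and none was higher, by edgeR's quasi-likelihood test at an adjusted p under 0.05. Their mean levels fell by 7.05% to 11.3%. Over all 12368 genes tested, 36.4% were called, 19.2% higher and 17.1% lower, so that 4 called of 10 is close to the background, while 0 higher and 4 lower stand beside shares that were nearly even. At an unadjusted p under 0.05 there were 5 genes, the fifth being CFL1, with a higher mean in 4HC. With library size as the only scaling the split was 1 higher (CFL1) and 3 lower. The 4 called genes were also those whose samples did not overlap between the groups, beside 45.3% of all genes. The median log2 fold change of the 10 genes was -0.03 against 0.0047 for all genes tested, and the median size of the change, without its sign, was 0.08 against 0.13 for all genes. The RNA came from whole cultures, so a smaller number of cells of a kind and less RNA per cell cannot be told apart.

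**Figure D2:**
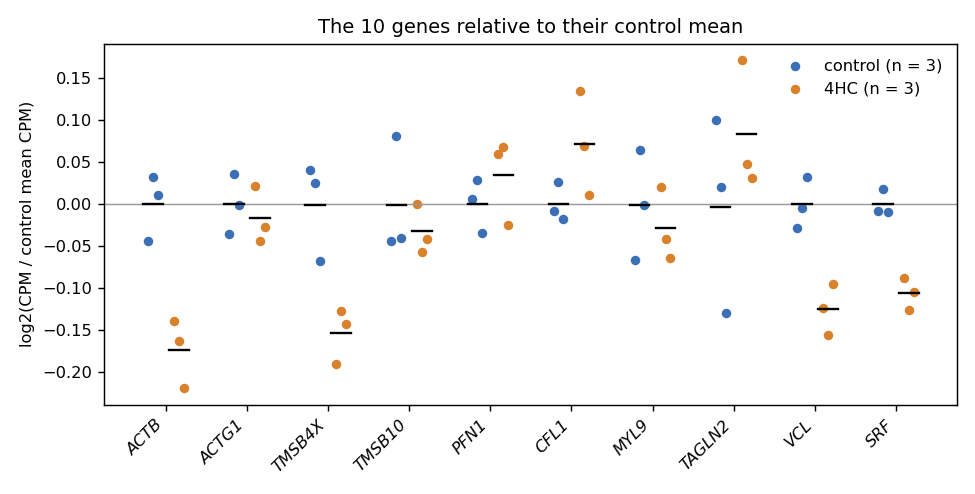
TMM-normalized CPM of each gene in each sample as a log2 ratio to its own control mean, with control samples in blue, 4HC samples in orange and black lines at the group means (n = 3 each). For ACTB, TMSB4X, VCL and SRF all 4HC points lie below all control points, and for the other 6 genes the groups overlap.

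ACTB and ACTG1 encode the 2 actins of non-muscle cells, beta and gamma actin, whose proteins are nearly the same. Their coding sequences differ at many positions. Over the 1128 bases of the coding sequence the pair differed at 99 positions and were 91.2% identical, with a longest shared run of 59 bases, in the GENCODE release 29 transcripts on GRCh38. The first 60 coding bases are shown because they hold 10 of these differences, given here in capitals, at chr7:5529598-5529657 for ACTB and chr17:81512295-81512354 for ACTG1, both on the minus strand.
ACTB: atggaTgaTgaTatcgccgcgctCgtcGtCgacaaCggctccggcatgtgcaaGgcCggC
ACTG1: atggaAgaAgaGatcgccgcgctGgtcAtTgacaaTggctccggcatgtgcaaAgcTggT

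ACTB (gene ID 60, chr7:5527148-5530601 in the deposited GRCh38 annotation) stood at 6332, 6677 and 6577 CPM in the control samples and at 5929, 5833 and 5609 CPM in the 4HC samples. These and all later CPM values are normalized by TMM, a scaling that sets aside the genes with the most extreme ratios. Every 4HC sample was below the lowest control sample. The means were 6529 ± 178 and 5790 ± 164 CPM, so that the level fell by 11.3%, with a log2 fold change of -0.17 (SE 0.028, 95% interval -0.23 to -0.12, adjusted p = 1.88e-06). ACTG1 (gene ID 71, chr17:81509971-81512801) was at 6404, 6726 and 6554 CPM in control and 6661, 6363 and 6440 CPM in 4HC. The second 4HC sample was the lowest of the 6 and the other 2 lay within the control range, and the log2 fold change was -0.016 (SE 0.028, 95% interval -0.07 to 0.04, adjusted p = 0.686). The sign of the ACTG1 value turned to positive with library size as the only scaling (0.0046). The 2 genes were each read almost wholly as 1 transcript, NM_001101 for ACTB and NM_001614 for ACTG1, which held 99.3% of ACTG1 counts in control and 99.2% in 4HC.

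Since ACTB was called and ACTG1 was not, the pair was compared directly. ACTB made up 49.7%, 49.8% and 50.1% of the summed counts of the pair in the control samples and 47.1%, 47.8% and 46.6% in the 4HC samples. The near-even split of the control samples shifted towards ACTG1 in each 4HC sample, with no overlap. The difference was -2.72 percentage points (49.9 ± 0.192 against 47.2 ± 0.638, two-sided exact permutation p = 0.1, the smallest possible), and it was the same on the TPM scale, at 51.6% and 48.9%. Summed into 1 feature, to set aside any exchange of reads between the pair, ACTB and ACTG1 fell from 13090 ± 336 to 12278 ± 280 CPM, with a log2 fold change of -0.09 (SE 0.027, adjusted p = 0.00572). Both the share and the sum were chosen after the values had been seen. Among the other actins only ACTA2, smooth muscle alpha actin, was tested, at 222 CPM in control and 228 CPM in 4HC (log2 fold change 0.04, adjusted p = 0.421). ACTA1, ACTC1, ACTG2 and ACTBL2 had at most 12 counts in any sample. Genes of the POTE family, some of which carry an actin-like end, summed to between 351 and 398 counts per sample, small beside the actins.

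**Figure D3:**
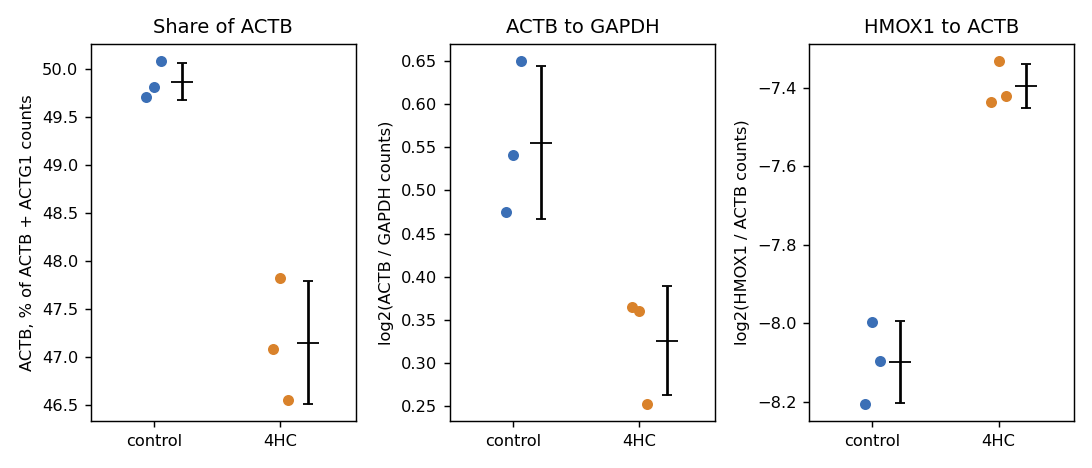
Share of ACTB in the summed ACTB and ACTG1 counts (left, percent), log2 ratio of ACTB to GAPDH counts (middle) and log2 ratio of HMOX1 to ACTB counts (right) in each control sample (blue) and 4HC sample (orange), with the mean and SD of 3 samples in black. The groups do not overlap in any panel, and no axis starts at 0.

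The beta-thymosins are very short proteins, and each of the 2 genes was listed with 1 transcript. Their coding sequences, of 135 bases each, are shown whole because they are short and the letters that differ lie along their whole length. They differed at 37 positions (capitals) and were 72.6% identical, with no shared run longer than 10 bases. The coding bases lie in more than 1 exon, within chrX:12976262-12976811 for TMSB4X and chr2:84906018-84906423 for TMSB10, both on the plus strand of GRCh38.
TMSB4X: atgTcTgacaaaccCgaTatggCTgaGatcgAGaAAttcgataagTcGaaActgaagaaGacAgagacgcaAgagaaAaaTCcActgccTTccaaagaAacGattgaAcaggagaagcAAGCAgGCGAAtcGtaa
TMSB10: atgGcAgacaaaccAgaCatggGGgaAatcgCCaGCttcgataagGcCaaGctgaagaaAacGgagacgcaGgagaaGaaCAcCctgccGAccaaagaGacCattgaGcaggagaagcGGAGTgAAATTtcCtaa

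TMSB4X (gene ID 7114, chrX:12975110-12977223), which encodes thymosin beta 4, the main protein that holds single actin molecules, was at 9127, 9033 and 8467 CPM in the control samples and at 7780, 8127 and 8042 CPM in the 4HC samples. The lowest control sample was above the highest 4HC sample. The means of 8875 ± 357 and 7983 ± 181 CPM differed by a log2 fold change of -0.15 (SE 0.029, 95% interval -0.21 to -0.095, adjusted p = 2.24e-05), so that the mean fell by 10.1%. TMSB10 (gene ID 9168, chr2:84905639-84906675), encoding thymosin beta 10, was at 186, 202 and 186 CPM in control and at 192, 184 and 186 CPM in 4HC. The groups overlapped throughout, and the log2 fold change was -0.03 (SE 0.037, 95% interval -0.11 to 0.04, adjusted p = 0.535). Per transcript length TMSB10 stood at 1690 ± 71.3 and 1629 ± 38.8 TPM. The number of TMSB4X counts per actin count, with ACTB and ACTG1 summed, was 0.717, 0.674 and 0.645 in control and 0.618, 0.666 and 0.667 in 4HC. Here the groups overlapped (0.678 ± 0.036 against 0.651 ± 0.028, two-sided exact permutation p = 0.4), a ratio that was chosen after the values had been seen.

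PFN1 and CFL1 encode profilin 1, which delivers actin to filament ends, and cofilin 1, which severs filaments. PFN1 (gene ID 5216, chr17:4945652-4948530) was at 817, 830 and 794 CPM in control and at 848, 853 and 800 CPM in 4HC. The 4HC samples were spread across and above the control range, and the log2 fold change was 0.035 (SE 0.031, 95% interval -0.027 to 0.097, adjusted p = 0.399). CFL1 (gene ID 1072, chr11:65823022-65858180 in the deposited table) was at 1111, 1138 and 1104 CPM in control and at 1227, 1173 and 1126 CPM in 4HC. The third 4HC sample lay within the control range and the other 2 lay above it. The log2 fold change was 0.07 (SE 0.031, 95% interval 0.011 to 0.13), with an unadjusted p of 0.0223 and an adjusted p of 0.0589 in edgeR. This call turned on single choices: CFL1 passed as higher in 4HC with library size as the only scaling (0.09, adjusted p = 0.0134), without the second control sample (0.08, adjusted p = 0.0435) and without the third 4HC sample (0.10, adjusted p = 0.0120).

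**Figure D4:**
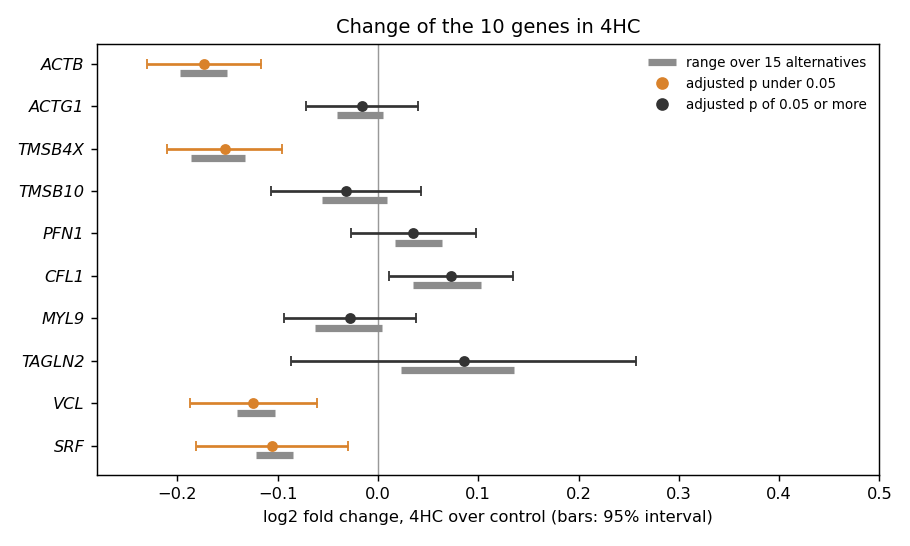
Log2 fold change of each gene, 4HC over control, with its 95% interval from edgeR, in orange where the adjusted p was under 0.05, and in grey the range of the value over 15 alternative settings. The intervals of ACTB, TMSB4X, VCL and SRF lie below 0, and that of CFL1 lies above 0 although its adjusted p was 0.0589.

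MYL9 encodes a regulatory light chain of myosin II, TAGLN2 encodes transgelin 2, a small protein that binds actin filaments, and VCL encodes vinculin, which ties actin filaments to the sites where a cell holds on to its surroundings. MYL9 (gene ID 10398, chr20:36541519-36551447) was at 563, 616 and 589 CPM in control and at 598, 572 and 564 CPM in 4HC. All 3 of its 4HC values lay inside the control range, with a log2 fold change of -0.03 (SE 0.033, 95% interval -0.09 to 0.04, adjusted p = 0.537). TAGLN2 (gene ID 8407, chr1:159918111-159925507) was at 15.3, 14.5 and 13.03 CPM in control and at 16.1, 14.7 and 14.6 CPM in 4HC. Only its first 4HC sample exceeded the control range, and at 216 to 266 counts per sample its interval was the widest of the 10 genes (log2 fold change 0.09, SE 0.086, 95% interval -0.09 to 0.26, adjusted p = 0.464).

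VCL (gene ID 7414, chr10:73998116-74121363) was at 501, 509 and 522 CPM in the control samples and at 469, 458 and 478 CPM in the 4HC samples. The highest 4HC sample was below the lowest control sample. The means were 511 ± 10.8 and 468 ± 9.81 CPM, with a log2 fold change of -0.12 (SE 0.032, 95% interval -0.19 to -0.06, adjusted p = 0.00138), and the level fell by 8.25%. In the deposited coordinates VCL overlaps AP3M1, which had on average 1880 counts in control and 1812 in 4HC, and whether reads were assigned by strand is not given in the sources used here. VCL was counted as 2 transcripts that differ by 1 exon. The longer, NM_014000, encodes metavinculin, the form known from muscle, and holds 22 exons against 21 in NM_003373. Its additional exon, the 19th, is shown whole because it is what separates the 2 forms. It spans 204 coding bases at chr10:74111909-74112112 on the plus strand of GRCh38.
VCL exon 19: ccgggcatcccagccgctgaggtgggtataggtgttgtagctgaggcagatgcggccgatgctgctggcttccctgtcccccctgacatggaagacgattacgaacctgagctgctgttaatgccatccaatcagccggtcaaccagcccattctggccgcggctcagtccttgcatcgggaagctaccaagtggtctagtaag

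The longer transcript took the larger part of VCL counts in every sample, at 61.3%, 59.5% and 59.0% in control and 58.2%, 59.1% and 63.0% in 4HC. These shares overlapped between the groups (59.9 ± 1.22 against 60.1 ± 2.55, two-sided exact permutation p = 0.9). The estimated counts of NM_014000 went from 5000 ± 92.7 to 4611 ± 274 and those of NM_003373 from 3348 ± 203 to 3060 ± 180. As CPM on library size alone, without TMM, the log2 ratios were -0.10 and -0.11, and neither transcript by itself separated the groups.

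SRF (gene ID 6722, chr6:43168676-43181506 in the deposited table) was at 145.0, 147.6 and 144.8 CPM in the control samples and at 137.2, 133.6 and 135.6 CPM in the 4HC samples. The samples of each group lay close together and the groups did not overlap. The means were 146 ± 1.57 and 135 ± 1.78 CPM, so that the level fell by 7.05%, with a log2 fold change of -0.11 (SE 0.038, 95% interval -0.18 to -0.03, adjusted p = 0.0234). Of the 4 genes called lower, SRF was the one whose call was lost in other settings: with library size as the only scaling (-0.08, adjusted p = 0.0715), in limma on FPKM (-0.09, adjusted p = 0.0748), without the second control sample (-0.10, adjusted p = 0.0614) and without the second 4HC sample (-0.10, adjusted p = 0.0885). Its main transcript, NM_003131, was estimated at 2264 ± 66.3 counts in control and 2155 ± 29.8 in 4HC. The minor transcript NM_001292001 held 7.01%, 3.91% and 4.18% of SRF counts in control and 4.65%, 2.15% and 1.81% in 4HC. Its share overlapped between the groups, and it rested on no more than 165 estimated counts in any sample.

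SRF is itself a known SRF target, and its promoter carries the element that its protein binds. The CArG box, 2 C followed by 6 A or T and 2 G, reads as a CArG box on both strands, and was searched in windows from 250 bases before to 50 bases after the start of each RefSeq gene on GRCh38.p14. It was found in 454 of 35116 windows (1.29%). Windows were at hand for 8 of the 10 genes, all but ACTB and MYL9, and 2 of these held a box: SRF with 2, at 30 to 21 and at 10 to 1 bases before the start, and ACTG1 with 1, at 94 to 85 bases before the start. The 120 bases before the start are shown for both, with the boxes in capitals, since these are the genes here in which the letters of the element were found. The SRF stretch is chr6:43171149-43171268 on the plus strand and the ACTG1 stretch is chr17:81512800-81512919 on the minus strand.
SRF: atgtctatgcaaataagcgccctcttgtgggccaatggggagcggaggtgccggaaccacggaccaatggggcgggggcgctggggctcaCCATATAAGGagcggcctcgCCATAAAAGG
ACTG1: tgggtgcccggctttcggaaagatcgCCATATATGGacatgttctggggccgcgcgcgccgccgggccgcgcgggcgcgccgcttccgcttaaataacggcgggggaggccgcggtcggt

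Of these 2 genes SRF was called lower and ACTG1 was not called. Over all tested genes with a window, 159 of 10180 (1.56%) held a CArG box. Of these, 25 were called higher (15.7%) and 31 lower (19.5%), beside 19.2% and 17.1% of all 12368 genes tested. The latter shares include genes without a window, and the share over genes with a window was not computed. The median log2 fold change of the genes with a box was -0.016. A match is a run of letters and not a measured binding site, and enhancers outside the windows were not searched.

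The partners of SRF were measured beside it. MRTFA, the actin-sensing coactivator, was at 24.1 CPM in control and 23.7 CPM in 4HC (log2 fold change -0.022, adjusted p = 0.837), and its sign turned without single samples. MRTFB was at 50.4 and 52.4 CPM (0.06, adjusted p = 0.416). ELK1, one of the ternary complex factors that join SRF at genes of the growth factor response, was at 79.1 and 80.4 CPM (0.024, adjusted p = 0.714). ELK3, also a ternary complex factor, rose from 29.5 to 35.4 CPM in 4HC, with a log2 fold change of 0.26 (SE 0.059, adjusted p = 0.000314). ELK4 rose from 66.5 to 72.6 CPM (0.13, adjusted p = 0.0280) and SCAI, an inhibitor of MRTF, from 29.3 to 33.2 CPM with overlapping samples (0.18, adjusted p = 0.0266). The last 2 calls did not stand in every setting: both were lost in DESeq2 and limma, ELK4 also without the first or second control or the second 4HC sample (adjusted p up to 0.130), and SCAI without the second or the third control or the first 4HC sample (adjusted p up to 0.255). Of the 11 genes tested in the list of SRF and its cofactors, 3 were higher and 1, SRF, was lower, with a median of 0.07. Without the second control sample 1 was higher and 0 lower, without the second 4HC sample 0 were lower, in DESeq2 and limma 1 was higher, and with library size only and in limma on FPKM 0 were lower. MYOCD, the muscle coactivator, had at most 4 counts in any sample.

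Among 27 tested genes of a list of textbook SRF targets, 4 were higher in 4HC and 6 lower, and 17 were not called, with a median log2 fold change of 0.0048, beside 0.0047 for all genes tested. Without the genes described above, 4 were higher and 3 lower of 20. The 4 that rose were CCN1, a secreted matrix protein, from 18.1 to 26.9 CPM (log2 fold change 0.57, adjusted p = 1.92e-09), EGR1, an immediate early transcription factor, from 92.9 to 130 CPM (0.49, adjusted p = 1.10e-13), FOS (0.43, adjusted p = 0.0251) and TAGLN, transgelin, from 434 to 476 CPM (0.13, adjusted p = 0.00115). The 3 that fell were ZYX, zyxin of the focal adhesions, from 211 to 185 CPM (-0.19, adjusted p = 7.23e-05), and the tropomyosins TPM1 and TPM4. TPM1 went from 406 to 369 CPM (-0.14, adjusted p = 0.000448) and TPM4 from 1376 to 1251 CPM (-0.14, adjusted p = 0.000250). CCN1, EGR1 and FOS are known as genes of the immediate early response to growth factors, and TAGLN, ZYX, TPM1 and TPM4 as genes of the actin cytoskeleton. The call of FOS was lost without the second or the third control or the first or second 4HC sample (adjusted p up to 0.103). It was also lost in DESeq2, and the adjusted p of FOS reached 0.143 over the alternatives that kept all samples. Its mean was under 5 CPM in both groups.

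The wider actin machinery was described with 9 lists holding 188 distinct genes, of which 164 were tested. Of these, 36 were higher (22.0%) and 35 lower (21.3%), with a median log2 fold change of 0.011, beside 19.2% and 17.1% of all genes. With library size as the only scaling the split was 41 higher and 24 lower, and in limma on FPKM it was 32 and 20. In the list of beta-thymosins, profilins and cofilins, 1 of 7 was higher and 1, TMSB4X, was lower (median 0.03). The count higher lay between 0 and 2 over the alternatives: it was 0 without the first control or the second 4HC sample, in DESeq2 and in limma on TPM, and 2 without the second control or the first 4HC sample and with library size only. The gene that rose was PFN2, profilin 2, from 218 to 234 CPM (0.10, adjusted p = 0.0281). This call did not hold without the first or second control or the second or the third 4HC sample (adjusted p up to 0.256). The actin list had 0 higher and 1 lower, ACTB, of 3 (median -0.016).

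Filament nucleation, with the ARP2/3 complex, the WAVE complex and the formins, had 10 higher and 8 lower of 38 (median -0.014). The 8 lower genes included subunits of the ARP2/3 and WAVE complexes and formins, while the 4 genes named below by size of change all rose. The 8 lower became 5 without the second control sample, 4 without the third control or the second 4HC sample, 4 with library size only, in limma on TPM and in DESeq2, and 1 in limma on FPKM, and the 10 higher became 6 in DESeq2 and in limma on TPM. CYFIP2, a subunit of the WAVE complex, rose from 138 to 241 CPM (0.80, SE 0.038, adjusted p = 5.51e-24), and the formins DIAPH3 (51.1 to 74.6 CPM, 0.55, adjusted p = 1.10e-13) and FMNL3 (14.8 to 20.0 CPM, 0.43, adjusted p = 2.45e-05) rose as well. COBL, a nucleator, rose from 4.47 to 6.0 CPM (0.43, adjusted p = 0.0160). It was not called without the second or the third control or the first 4HC sample (adjusted p up to 0.154). Over the alternatives that kept all samples, its log2 fold change went down to 0.20 and its adjusted p up to 0.122. Filament turnover and capping had 6 higher and 3 lower of 30 (median 0.07). The 6 higher became 3 without the third 4HC sample, in DESeq2 and in limma on TPM, and the 3 lower became 1 without the third control sample, in DESeq2 and in limma, 5 with at least 10 counts in every sample and 7 with DESeq2 size factors. This list included EPS8, a capping protein, from 5.73 to 8.75 CPM (0.61, adjusted p = 5.78e-05). LIMK2, one of the kinases that inactivate cofilin, went from 16.6 to 20.7 CPM (0.32, adjusted p = 0.000910). Among the related kinases of this list, LIMK1 went from 29.9 to 26.9 CPM (-0.15, adjusted p = 0.0516), with all 4HC samples below control. TESK1 (0.14, adjusted p = 0.0580) and TESK2 (0.16, adjusted p = 0.574) had higher means in 4HC, and none of these related kinases was called. CORO1B, a coronin, went from 52.6 to 62.8 CPM (0.25, adjusted p = 3.85e-05). CAP2 fell from 22.7 to 19.7 CPM with overlapping samples (-0.21, adjusted p = 0.0251). It was not called without the second or the third control or the first or second 4HC sample (adjusted p up to 0.170). Over the alternatives that kept all samples, the adjusted p of CAP2 reached 0.125.

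Tropomyosins, transgelins and calponins, the list that holds TAGLN2, had 2 higher and 4 lower of 11 (median -0.03), and the 4 lower became 2 without the first 4HC sample, with library size only and in limma on FPKM. SMTN, smoothelin, rose from 38.0 to 67.7 CPM (0.84, SE 0.053, adjusted p = 6.49e-19), and the other gene that rose was TAGLN. Actin crosslinkers and focal adhesion genes, the list that holds VCL, had 8 higher and 10 lower of 29 (median -0.05), the higher falling to 5 in DESeq2. PDLIM5, a scaffold of actin stress fibres, fell from 1135 to 893 CPM (-0.35, SE 0.031, adjusted p = 3.10e-13). PXN, paxillin, rose from 33.4 to 44.6 CPM (0.41, adjusted p = 3.67e-08), as did PLS1, plastin 1 (0.35, adjusted p = 3.66e-06), and PDLIM1 (0.36, adjusted p = 0.00967), the last not called in DESeq2 (adjusted p = 0.0808). The level in 4HC was 1.74 times that in control for CYFIP2 and 1.78 times for SMTN, larger changes than those of any of the 10 genes, of which ACTB had the largest at 0.887 times.

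**Figure D5:**
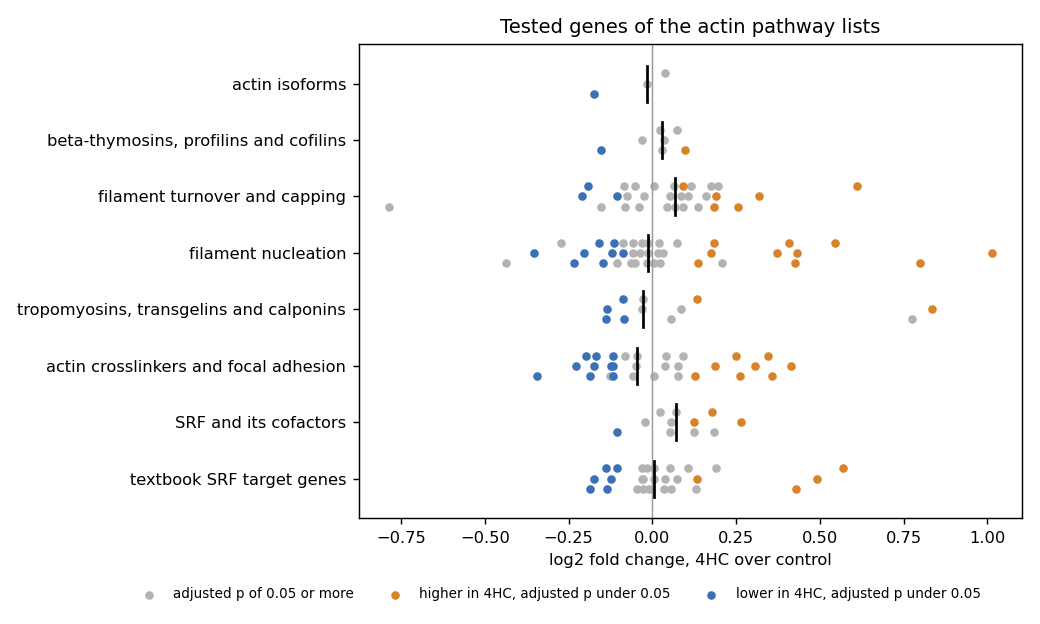
Log2 fold change, 4HC over control, of each tested gene of 8 of the 9 lists, in orange where called higher, blue where called lower and grey where not called (edgeR, adjusted p of 0.05), with a black line at each list's median. The medians lie between -0.05 and 0.07, and called genes lie on both sides of 0 in 7 of these 8 lists, the actin list having 1 called gene.

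The study normalized its RT-qPCR and Western blots to beta-actin or GAPDH, a glycolytic enzyme, without saying which served which. Its supplement lists primers for GAPDH and not for ACTB, and an antibody for beta-actin and not for GAPDH. The RNA counts of ACTB and GAPDH were set against each other and against HMOX1, heme oxygenase 1, a stress gene that breaks down heme. GAPDH went from 4446 ± 219 to 4618 ± 82.4 CPM (log2 fold change 0.05, SE 0.030, adjusted p = 0.148), and it was called higher with library size as the only scaling (0.08, adjusted p = 0.0355) and without the second control sample (0.08, adjusted p = 0.0491). The log2 ratio of ACTB to GAPDH counts was 0.475, 0.541 and 0.650 in control and 0.365, 0.360 and 0.253 in 4HC. Each 4HC ratio was below each control ratio, with a difference of -0.23, or 0.853-fold (two-sided exact permutation p = 0.1, the smallest possible). HMOX1 rose by a log2 fold change of 0.53 on TMM-normalized counts (SE 0.066, adjusted p = 4.31e-09). Taken as a ratio to ACTB it was higher in 4HC by 0.70 on the log2 scale (1.63-fold), and taken as a ratio to GAPDH by 0.47 (1.39-fold), each with no overlap and an exact p of 0.1. Within these RNA counts the choice of reference thus moved the measured size of the HMOX1 difference without turning it. Beta-actin protein was not measured here.

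The profiles of ACTB and SRF over the 6 samples were compared with those of 10374 genes of at least 5 CPM, by the mean absolute difference between their log2 ratios to the control mean. The nearest to ACTB were SAE1, a subunit of the SUMO-activating enzyme, at 0.0089, STX7, an endosomal syntaxin, at 0.0096, and POR, cytochrome P450 oxidoreductase, at 0.012. The nearest to SRF were PPP1R11, an inhibitor of protein phosphatase 1, at 0.0062, UBE2V1, a ubiquitin-conjugating enzyme variant, at 0.0066, and PCBP1, an RNA-binding protein, at 0.0089. All 6 were lower in the mean in 4HC, between -0.10 and -0.18 on the log2 scale, and PPP1R11 did not pass the test (adjusted p = 0.166). STX7 was not called in DESeq2 (adjusted p = 0.0548). The call of PCBP1 was lost with library size only, in limma on FPKM, and without the third control or the second 4HC sample (adjusted p up to 0.0629). Within the 10 genes VCL was the nearest to both, at place 289 for ACTB (0.037) and place 195 for SRF (0.026), so many other genes followed ACTB and SRF across these samples more closely than any of the 10 genes described here did.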

How the data were processed

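RNA-seq of 3 control and 3 4HC samples of COV434 cells was used. Per the labels, reads were filtered by the authors using SOAPnuke, and the submitters' processing notes name HISAT2, Bowtie2, RSEM (version 1.3.1) and GRCh38.p13 without giving their roles. The authors deposited expected counts and TPM per gene and per transcript, and FPKM per gene. Expected counts are estimates that divide reads shared by related genes, and 85.5% of them were whole. The deposited columns of the authors' own comparison (fold changes, p and q values from DESeq2) were not used.

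Expected counts were rounded and tested with edgeR (version 4.0.16, R 4.3.3) by the quasi-likelihood method, with TMM, filterByExpr and condition as the only term. P-values were adjusted by Benjamini-Hochberg over all 12368 genes tested of 16798, and called means an adjusted p under 0.05. Standard errors were the log2 fold change over the root of F. The biological coefficient of variation was 0.0277, and pairs of samples within a group differed by a chi-square of 1.70 to 2.46 per gene, more than sampling noise. On simulated counts for 12368 genes, changes of 1.5 and 0.5 (log2) in 200 genes were recovered at 100% and 95%, with 4.88% false calls. Changes as small as those of the 10 genes, or in as large a share of genes as was called here, were not simulated. Ratios and shares used two-sided exact permutation tests (scipy 1.17.1). Precision depended on the counts and on the spread between samples, and p-values cover the spread between these samples. Alternatives were DESeq2 (1.42.0), DESeq2 size factors in edgeR, library size only, no filter, at least 10 counts in every sample, limma (3.58.1) on log2 TPM with pseudocounts of 1 and 0.1 and on log2 FPKM with 1, the replicate number as a block, and each sample left out. The sum of ACTB and ACTG1 was added after the data were seen.

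The 10 genes, the 9 pathway lists and the 6 marker lists were chosen with earlier results of these data known. Named were the 10 genes, GAPDH, HMOX1, MRTFA, MRTFB, ELK1, ELK3, ELK4 and SCAI, in each list up to 4 genes with the largest change among those called with at least 5 CPM in a group, and the 3 genes most like ACTB and like SRF. FOS, ACTA2, LIMK1, TESK1, TESK2, the untested actins, AP3M1, the POTE genes and the marker genes fall outside this rule. They were chosen with their values in view. Genes of 1 pathway list enter the sums over lists but are not reported here by themselves. Promoter windows are from RefSeq (GRCh38.p14), coding sequences and exons from GENCODE release 29 (GRCh38).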

Additional observations from a re-analysis of the deposited data

How the results depend on the processing

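ACTB, TMSB4X and VCL kept their direction and stayed called lower in each of the 15 alternatives, fits without 1 sample included, and SRF kept its direction. The number of the 10 genes called higher was 1 with library size only, and 0 to 1 over the fits without 1 sample (CFL1, without the second control or the third 4HC sample). The number called lower was 3 with library size only and in limma on FPKM, and 3 to 4 without 1 sample (SRF lost). Among all genes, 1385 were called lower in limma on FPKM against 2118, and DESeq2 called 1614 higher and 1564 lower against 2379 and 2118. Over the pathway lists, 22 genes were higher in DESeq2 and 23 in limma on TPM with either pseudocount, against 36, and 20 were lower in limma on FPKM, against 35. Without 1 sample, all genes called were 1942 to 2267 higher and 1680 to 1979 lower, and list genes 26 to 30 higher and 26 to 34 lower. The log2 fold change of ACTG1 turned to 0.0046 with library size only and 0.0025 in limma on FPKM. Without 1 sample, signs turned for ACTG1 (-0.041 to 0.00087), TMSB10 (-0.056 to 0.0087), MYL9 (-0.063 to 0.0040) and MRTFA (-0.052 to 0.024), none of which was called in any of these fits. The cause of these moves was not tested. The group difference in the log2 ratio of ACTB to GAPDH ranged from -0.27 to -0.18 without 1 sample, that of HMOX1 to ACTB from 0.65 to 0.76 and that of HMOX1 to GAPDH from 0.38 to 0.52.

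The labels number the samples alike in both groups. Deviations of same-numbered samples from their group means correlated at -0.011, 0.055 and 0.052, and those of differently numbered samples at -0.096 to 0.044. Whether a shared number marks a shared batch was not tested. With the replicate number as a block, 2259 genes were higher and 1954 lower, and of the 10 genes 0 were higher and 4 lower. With 3 pairs an exact test cannot go below p = 0.25. At 216 to 266 counts the interval of TAGLN2 allows changes in either direction.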
